A study of Mus musculus with 56 samples.

Results

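The genes described here encode the machinery of mitochondrial respiration: 38 genes of the respiratory chain and ATP synthase, and 32 genes of the mitochondrial ribosome. They were chosen by symbol alone, as every gene on the arrays whose symbol begins with Nduf, Uqcr, Atp5, Mrpl or Mrps, with Cox and a digit from 4 to 8, or is Cycs, Cyc1 or one of the Sdh subunit genes. The Nduf assembly factors were left out. The rule found 70 genes, represented by 74 probes, among 6795 named genes. The respiratory group holds 13 genes of complex I, 2 of complex II, 2 of complex III, 1 for cytochrome c, 12 of complex IV and 8 of ATP synthase. The ribosomal group holds 19 genes of the large subunit and 13 of the small subunit.

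The series measured the response to TGF-β1 in keratinocytes cultured from newborn mouse skin. Ras keratinocytes carried the Ha-ras oncogene, delivered on day 3 of culture by a retrovirus that cannot replicate, and were treated 4 days after infection. Primary keratinocytes are the matching group without the oncogene. Balb/c ras and primary cells received 1 ng/ml TGF-β1 for 1, 6, 24 or 48 h, and Smad3 knockout and Smad3 wild type cells of both kinds, from a strain labelled C57B1/SVJ, received it for 48 h. Smad3 encodes a protein that carries the TGF-β signal from the receptor to the nucleus. On each array, RNA of treated cells was set against RNA of their untreated counterparts, so each value is a log2 ratio of treated over untreated and gives no level of a transcript. The ras groups had 6, 7, 6 and 4 arrays at 1, 6, 24 and 48 h, and the primary groups had 6, 7, 6 and 3. Each of the 4 Smad3 groups had 1 array. The design text speaks of multiple arrays for each sample, so arrays may be technical repeats of one culture, and the tests below measure the spread between arrays.

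Complexes I to IV pass electrons from NADH and succinate to oxygen, and most of them pump protons across the inner mitochondrial membrane. ATP synthase uses the returning protons to make ATP. The mitochondrial ribosome translates the few respiratory subunits that mitochondrial DNA encodes, so nuclear genes of both groups contribute to one pathway. In skin, basal keratinocytes divide and differentiate, and TGF-β1 is known to restrain their growth.

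A further 7 arrays had the dyes reversed and were left out of the tests, because the deposited sign of their ratios could not be settled. As deposited, the median over the respiratory genes was above 0 on all 7, between 0.13 and 1.22, and so was that over the ribosomal genes, between 0.10 and 0.85. The arrays tested all carried treated RNA in the same dye. A dye effect on a gene therefore cannot be told apart from its response to TGF-β1 in a group mean. Known TGF-β target genes, of which 10 were measured, had positive median responses in all 8 Balb/c groups. That makes treated over untreated the likely direction on the arrays tested, although the list was chosen with earlier results of these data known. Among 3430 values of the 70 genes on the 49 arrays tested, 5 were larger than 3 log2 units in size, each on a different array and in a different gene. These 5 values were Ndufa5 on primary array 1 at 48 h, Mrpl27 on primary array 6 at 24 h (-5.68), Mrpl39 on ras array 1 at 24 h, Uqcr11 on the Smad3 wild type ras array and Ndufa11 on primary array 1 at 6 h (5.87). The values of the other 3 stand with their genes. How bright these 5 spots were was not examined. The spread of ratios on one array (SD over all probes) ran between 0.194 and 1.81, widest on ras array 1 at 24 h.

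Nuclear genes of respiration share promoter elements in mammals, among them sites for NRF1, a transcription factor known to activate respiratory genes. RefSeq promoters, taken as the 250 bases before the start on GRCm38.p6, were matched for 58 of the 70 genes. Both strands were searched for GCGCATG (the core of the NRF1 motif), CCGGAAG (an ETS core), ATGGCGG (a YY1 core) and GGGCGG (an SP1 box). The promoters of Cycs, Cox6a1 and Mrpl17 are shown, all with the NRF1 core, which 11 of the 58 promoters hold. Also shown is that of Uqcr11, which lacks the core. Of the 70 genes, Uqcr11 had the largest mean difference between Smad3 genotypes, taken from 1 array for each genotype and cell type. Sequences run 5′ to 3′ in the direction of the gene, with every match on either strand in capitals. Cycs encodes cytochrome c, Cox6a1 a complex IV subunit and Mrpl17 a protein of the large mitochondrial ribosomal subunit.
Cycs, chr6:50566570-50566819 (minus strand): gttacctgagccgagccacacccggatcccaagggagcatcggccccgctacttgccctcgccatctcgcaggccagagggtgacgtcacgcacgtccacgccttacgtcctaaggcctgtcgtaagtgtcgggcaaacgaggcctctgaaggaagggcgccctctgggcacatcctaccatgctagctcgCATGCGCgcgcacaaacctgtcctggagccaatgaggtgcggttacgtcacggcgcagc
Cox6a1, chr5:115348959-115349208 (minus strand): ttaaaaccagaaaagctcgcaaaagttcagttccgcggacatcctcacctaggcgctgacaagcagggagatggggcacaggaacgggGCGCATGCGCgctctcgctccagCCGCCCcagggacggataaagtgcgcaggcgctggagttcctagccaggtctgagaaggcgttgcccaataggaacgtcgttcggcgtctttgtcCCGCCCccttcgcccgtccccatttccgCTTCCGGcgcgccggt
Mrpl17, chr7:105811088-105811337 (minus strand): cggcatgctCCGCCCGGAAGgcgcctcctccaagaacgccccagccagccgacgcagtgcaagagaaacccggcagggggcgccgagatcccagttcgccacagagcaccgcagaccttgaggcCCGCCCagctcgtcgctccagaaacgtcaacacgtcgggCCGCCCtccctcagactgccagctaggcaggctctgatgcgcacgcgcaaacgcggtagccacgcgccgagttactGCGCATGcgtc
Uqcr11, chr10:80406822-80407071 (minus strand): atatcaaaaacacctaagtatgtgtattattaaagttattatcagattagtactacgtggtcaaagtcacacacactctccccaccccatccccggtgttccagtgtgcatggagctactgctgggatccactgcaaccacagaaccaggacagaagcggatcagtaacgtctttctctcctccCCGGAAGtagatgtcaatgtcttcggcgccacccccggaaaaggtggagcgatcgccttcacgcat
In Cycs the capitals mark 1 NRF1 core. In Cox6a1 the first run in capitals is a pair of NRF1 cores that overlap on opposite strands, followed by 2 SP1 boxes and 1 ETS core. In Mrpl17 an SP1 box and an ETS core overlap at the start, followed by 2 SP1 boxes and 1 NRF1 core. Uqcr11 holds 1 ETS core.

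The NRF1 core was present in 7 of 33 respiratory promoters (21.2%) and 4 of 25 ribosomal promoters (16%), against 4.96% of the promoters of genes on the arrays and 3.32% of all promoters listed. The genes that hold it are Cycs, Cox5b, Cox6a1, Sdhb, Ndufa11, Atp5k, Atp5l, Mrpl17, Mrpl32, Mrpl39 and Mrps18b. The ETS core was in 15.2% of respiratory and 16% of ribosomal promoters, against 11.6% on the arrays. The YY1 core was in 6.06% of respiratory and 0% of ribosomal promoters, against 3.13% on the arrays, and the SP1 box was in 42.4% and 60% of these, against 56.3%. Base composition was not matched, and a match is a description of letters. At 24 h in primary cells the median response was -0.19 over the 11 genes with the NRF1 core and -0.15 over the 47 without it, and at 48 h it was 0.06 and 0.21.

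The first question was whether TGF-β1 changed the transcripts of respiration and mitochondrial translation in either cell type. Almost no single gene passed the test. Of the 70 genes, 1 was called in any of the 8 Balb/c responses (limma, adjusted p under 0.05 over all 8905 features): Ndufa5, an accessory subunit of complex I, in primary cells at 48 h. In ras cells 0 of 70 were called at 1, 6, 24 and 48 h, where 0.0786%, 1.73%, 10.5% and 3.50% of all features were called. In primary cells 0 of 70 were called at 1, 6 and 24 h and 1 at 48 h, where 0.0112%, 0.0112%, 1.36% and 8.60% of all features were called. The 1 call was a decrease, as were those of 3.49% of all features. At an unadjusted p under 0.05, the genes that passed numbered 7, 2, 7 and 5 in ras cells over the 4 times and 2, 6, 18 and 16 in primary cells. Against these, 7.03%, 11.9%, 24.6% and 18.8% of all features passed in ras cells, and 5.37%, 9.42%, 10.1% and 22.0% in primary cells.

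The intervals describe how precisely the mean ratios were measured, given the spread between arrays. The 95% interval lay within 1 log2 unit of 0 for 67, 70, 68 and 65 of the 70 genes in ras cells, against 86.1%, 86.2%, 78.6% and 70.2% of all features. In primary cells it did so for 69, 68, 68 and 64 of the 70 genes, against 85.8%, 86.4%, 84.9% and 58.9%. For most of these transcripts a mean ratio of a doubling or halving relative to the array median lay outside the intervals in both cell types. The intervals do not cover a dye effect or, if arrays are repeats of one culture, the spread between cultures. They therefore set no limit on the response to TGF-β1 itself.

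**Figure D1:**
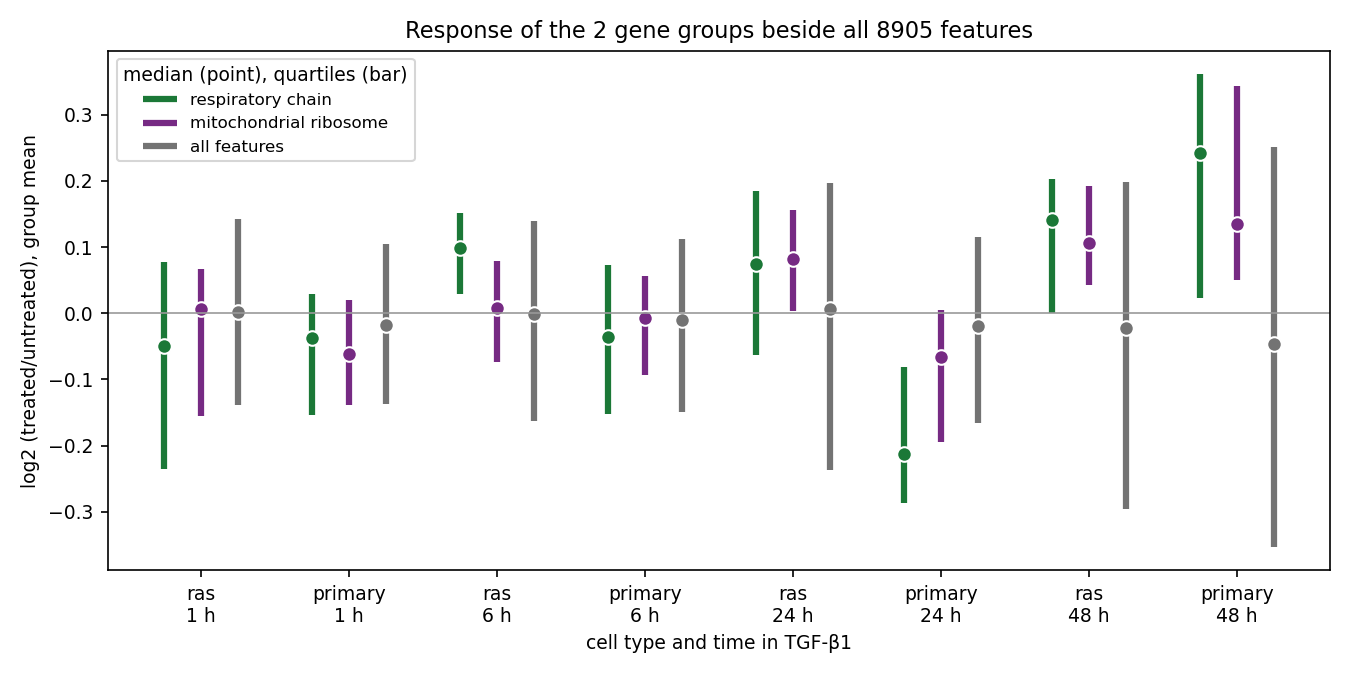
Median (points) and quartiles (bars) of the log2 response to TGF-β1 over the respiratory chain genes, the mitochondrial ribosome genes and all 8905 features, for ras and primary keratinocytes at 1, 6, 24 and 48 h. The respiratory median lies at -0.21 in primary cells at 24 h and at 0.24 at 48 h, while all medians in ras cells lie between -0.05 and 0.14.

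As groups, the respiratory genes moved by small amounts around the array median. In ras cells their median log2 response was -0.05, 0.10, 0.07 and 0.14 at 1, 6, 24 and 48 h, with 17, 30, 24 and 28 of the 38 genes above 0, against 50.2%, 49.9%, 50.9% and 47.4% of all features. In primary cells it was -0.04, -0.04, -0.21 and 0.24, with 13, 16, 3 and 29 of 38 above 0, against 45.9%, 47.9%, 46.1% and 46.3%. The ribosomal genes had medians of 0.01, 0.01, 0.08 and 0.11 in ras cells and of -0.06, -0.01, -0.07 and 0.13 in primary cells. The medians over all features lay between -0.05 and 0.01 in all 8 groups.

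**Figure D2:**
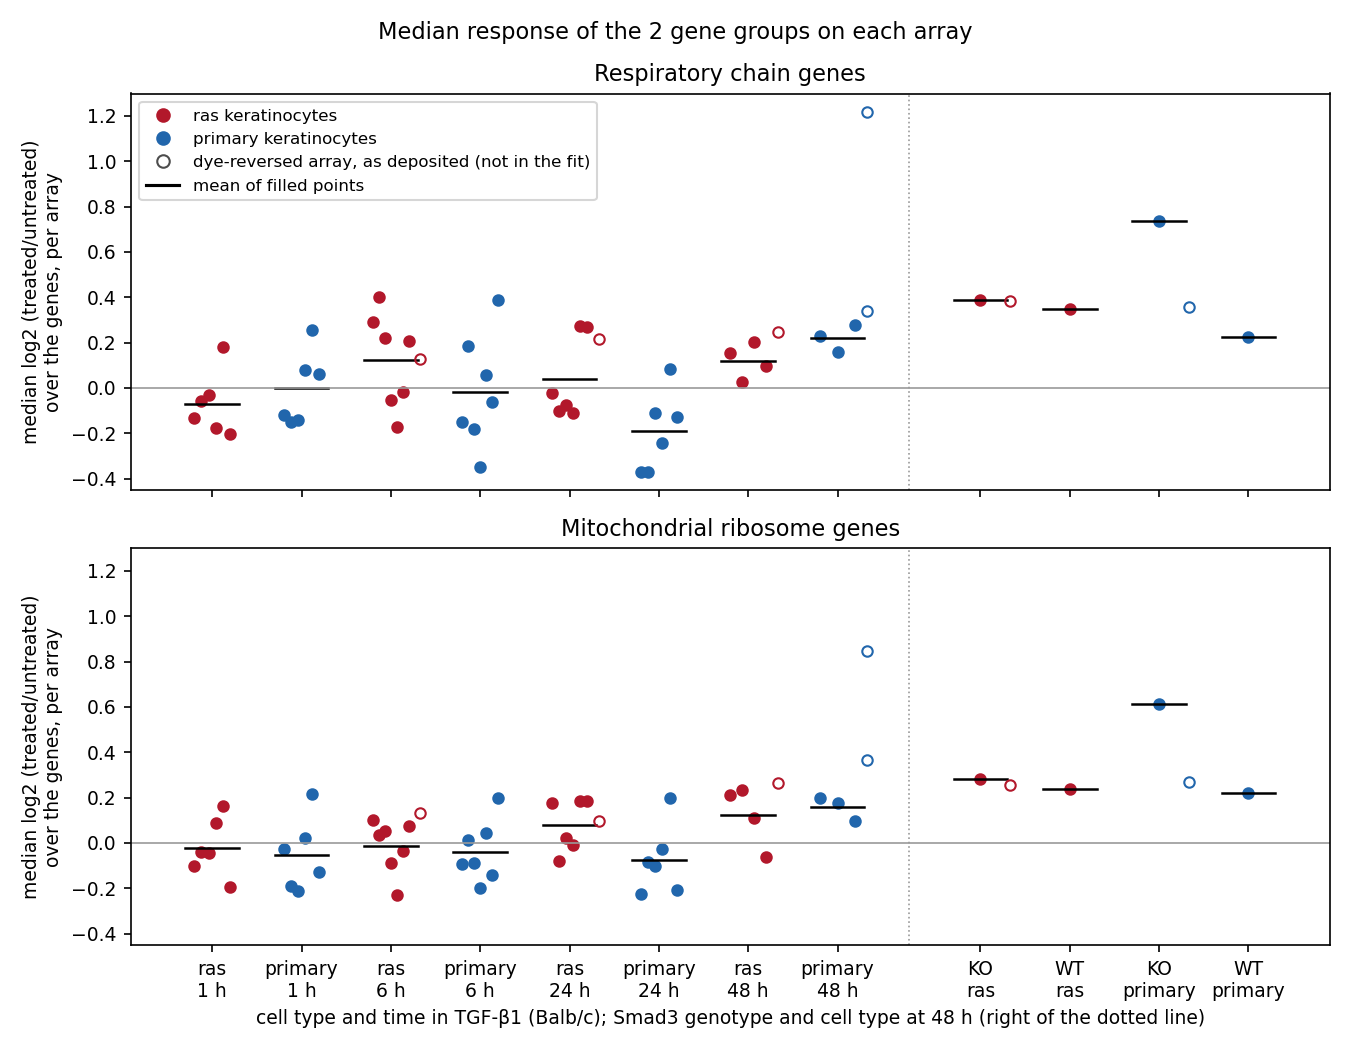
Median log2 response over the 38 respiratory genes (top) and the 32 mitochondrial ribosome genes (bottom) on each array, by cell type and time and, right of the dotted line, by Smad3 genotype at 48 h. Filled points are the arrays tested, bars their means and open points the dye-reversed arrays as deposited. At 24 h 5 of the 6 primary arrays lie below 0 in the top panel, and at 48 h all 3 lie above it.

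In ras cells small numbers of genes had an unadjusted p under 0.05. At 1 h 7 of the 70 genes were lower and 0 higher, against 3.59% and 3.44% of all features. Among them, Ndufv1, a core subunit of complex I that binds NADH, averaged -0.30 ± 0.10 (SE, n = 6), and Atp5b -0.38 ± 0.12, with 0 of 6 arrays above 0 for each. Mrps33 of the small ribosomal subunit averaged -0.40 ± 0.12. At 6 h the means of all 8 genes of ATP synthase lay above 0 (median 0.13), against 49.9% of all features, although none is called. The 8 genes share the same 7 arrays, on which their median ran between -0.39 and 0.51, with 2 arrays below 0. At 24 h 4 genes were higher and 3 lower at an unadjusted p under 0.05, against 10.6% and 14.0% of all features. Ndufa3 of complex I averaged 0.36 ± 0.14 and Mrpl23 0.29 ± 0.13 (SE, n = 6 each). At 48 h 17 of the 19 genes of the large ribosomal subunit lay above 0 (median 0.15), against 47.4% of all features.

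The ras array widest in spread decided the value of Mrpl39, which encodes a protein of the large ribosomal subunit. On the 6 ras arrays at 24 h its log2 ratios ran between -5.34 and 0.41 with a median of -0.28. Array 1 stood far below the other 5, which lay between -0.31 and 0.41. The mean was -0.92 ± 0.34 (SE, n = 6) with an adjusted p of 0.0680 by limma, and without array 1 it was -0.04 with an adjusted p of 0.934. The 2 probes of the gene averaged -0.03 and -1.82. In primary cells at 24 h Mrpl39 averaged -0.03 ± 0.34 (SE, n = 6).

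Cox4i1 and Cox7a1, both of complex IV, had the lowest adjusted p-values in ras cells at 48 h. Cox4i1 encodes the common form of subunit 4, and its log2 ratios were 0.45, 0.60, 0.28 and 0.55 on the 4 ras arrays. The mean was 0.47 ± 0.15 (SE, n = 4) with an adjusted p of 0.0694 by limma. All 4 arrays lay above 0, as did all 6 ras arrays at 24 h, where the mean was 0.25 ± 0.12. In primary cells Cox4i1 averaged -0.06 ± 0.12 at 24 h and 0.30 ± 0.17 at 48 h.

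Cox7a1 encodes the form of subunit 7a known from heart and skeletal muscle. Its log2 ratios in ras cells at 48 h were -1.419, -1.001, -0.42 and -0.37, and -0.63 on the dye-reversed array as deposited. All lay below 0, with arrays 1 and 2 lowest. The mean was -0.80 ± 0.24 (SE, n = 4) with an adjusted p of 0.0557 by limma, 0.0498 with the dye-reversed array included as deposited, 0.0395 without array 4 and 0.401 at most with any other array left out. In primary cells at 48 h Cox7a1 averaged -0.23 ± 0.28 (SE, n = 3), and at 6 h -0.58 ± 0.18 (SE, n = 7). Its counterpart in most tissues, Cox7a2, averaged 0.19 ± 0.17 in ras cells and 0.36 ± 0.20 in primary cells at 48 h. The muscle forms Cox6a2 and Cox8b averaged -0.28 ± 0.17 and 0.20 ± 0.25 in ras cells at 48 h, beside -0.10 ± 0.21 for Cox6a1 and 0.18 ± 0.14 for Cox8a.

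Primary cells at 24 h were the group in which most respiratory genes lay below 0. The median on an array ran between -0.37 and 0.09 over the 6 primary arrays, with 5 below 0. By role, all 8 genes of ATP synthase lay below 0 (median -0.23), as did 11 of 12 of complex IV (-0.21), 11 of 13 of complex I (-0.17), 13 of 19 of the large ribosomal subunit (-0.06) and 10 of 13 of the small one (-0.08). At an unadjusted p under 0.05, 18 of the 70 genes were lower and 0 higher, against 6.60% and 3.50% of all features, and 53.9% of all features lay below 0. The lowest adjusted p among the 70 was 0.0860, so none is called. Arrays were also grouped by the block of database IDs in which they were registered. The respiratory median was -0.24 and -0.31 over the 2 primary arrays of each of 2 earlier blocks. It was 0.09 and -0.13 on the single arrays of 2 later ones. The 2 arrays of the block at -0.24 read -0.11 and -0.37, so these 6 arrays do not separate block from array.

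Atp5g3, which encodes the membrane ring subunit c of ATP synthase, had the lowest p in that group. In ras cells at 24 h it averaged -0.03 ± 0.11 (SE, n = 6), with 3 of 6 arrays above 0. In primary cells at 24 h its log2 ratios on the 6 arrays ran between -0.57 and -0.03 with a median of -0.40. All 6 lay below 0, and only array 5 lay close to it. The mean was -0.36 ± 0.11 (SE, n = 6), with an adjusted p of 0.0860 by limma.

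Other subunits with an unadjusted p under 0.05 in primary cells at 24 h came from several complexes. Atp5a1 and Atp5b encode the α and β subunits of the catalytic head of ATP synthase, and averaged -0.41 ± 0.18 and -0.32 ± 0.12 (SE, n = 6 each). Of complex I, Ndufb11 averaged -0.39 ± 0.14, Ndufv3 -0.32 ± 0.13 and Ndufc1 -0.30 ± 0.12. Uqcr11, a small subunit of complex III, averaged -0.43 ± 0.17 with 0 of 6 arrays above 0. Uqcrfs1, the Rieske iron-sulphur protein of complex III, averaged -0.33 ± 0.14. Cycs averaged -0.28 ± 0.12, and the complex IV subunits Cox5b and Cox8a -0.29 ± 0.14 and -0.26 ± 0.11. Their adjusted p-values by limma ran between 0.247 and 0.480.

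Whether these genes are called in primary cells at 24 h depends on how the arrays are weighed. With arrays weighted by their quality, 20 of the 70 genes were lower and called, against 7.11% of all features, and with all arrays scaled to one spread 7 were, against 3.21%. With the 7 dye-reversed arrays brought in under an exchanged sign and a dye term, 18 were lower and called, against 3.46%, and with them brought in as deposited, 0 were, against 0.258%. None of the reversed arrays belongs to this group, so they act on its calls only through the dye term or the shared estimate of the spread. The exchanged sign with a dye term put the respiratory and ribosomal medians below 0 in every Balb/c group, so its calls are not further evidence from this group. Without primary array 5, Atp5g3 alone was called, with an adjusted p of 0.0498, against 1.17% of all features lower and called.

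Primary cells at 48 h showed the other sign. Of the 70 genes, 15 were higher and 1 lower at an unadjusted p under 0.05, against 11.9% and 10.1% of all features, while 46.3% of all features lay above 0. By role, 11 of 12 genes of complex IV lay above 0 (median 0.29), as did 11 of 13 of complex I (0.16), 5 of 8 of ATP synthase (0.25), 16 of 19 of the large ribosomal subunit (0.27) and 9 of 13 of the small one (0.10). The median over the respiratory genes was 0.23, 0.16 and 0.28 on the 3 arrays, and over the ribosomal genes 0.20, 0.18 and 0.10. All 6 of these medians lay above 0.

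Atp5j encodes coupling factor 6, part of the stalk that holds ATP synthase still. In ras cells at 48 h Atp5j averaged 0.32 ± 0.17, Cox7c 0.20 ± 0.16 and Mrpl40 0.11 ± 0.14 (SE, n = 4 each). The log2 ratios of Atp5j in primary cells at 48 h were 0.33, 1.00 and 0.46, a mean of 0.60 ± 0.20 (SE, n = 3) with an adjusted p of 0.0545 by limma. Cox7c, a small complex IV subunit, had ratios of 0.37, 0.71 and 0.54 and a mean of 0.54 ± 0.18 with an adjusted p of 0.0561. With probes kept apart, its 2 probes averaged 0.31 and 0.76 (adjusted p 0.348 and 0.0378 by limma). Mrpl40 of the large ribosomal subunit had ratios of 0.30, 0.54 and 0.45 and a mean of 0.43 ± 0.16 with an adjusted p of 0.0816. All 3 genes were above 0 on every primary array at 48 h, and none is called with the probes of a gene averaged.

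Ndufa5 was the exception in primary cells at 48 h, and its call rests on 1 array. In ras cells at 48 h it averaged -0.30 ± 0.53 (SE, n = 4). In primary cells at 48 h its log2 ratios were -6.38, -0.47 and 0.88, a mean of -1.99 ± 0.61 (SE, n = 3) with an adjusted p of 0.0333 by limma. Array 1 lay far below 0, array 2 slightly below and array 5 above, and the dye-reversed arrays read -1.37 and 0.74 as deposited. Without array 1 the mean was 0.21 with an adjusted p of 0.941.

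Several other measurements moved with the 48 h primary samples. In ras cells at 48 h the 8 fibroblast markers measured had a median of 0.15 and the 8 keratinocyte markers 0.09, with 0 called in either list, and of 9 immune markers 1 rose, Lyz2, lysozyme of macrophages, by 0.96, against 1.90% of all features higher and called. In primary cells at 48 h, of the 8 fibroblast markers 3 rose, Col1a2 by 1.83, Mfap5 by 1.77 and Twist1 by 1.28 log2 units (median of the list 0.77), against 5.11% of all features higher and called. Of the 9 immune markers 3 rose, Lyz2 by 2.59, Tyrobp by 1.01 and Fcer1g by 0.77, and Cd8a fell at -1.75. Of the 8 keratinocyte markers 2 fell, Krt15 at -1.02 and Trp63 at -1.01, against 3.49% of all features lower and called. Of 4 endothelial markers and 1 melanocyte marker 0 were called in either cell type at 48 h. Ratios give no level of these markers, and a change in cell makeup cannot be told apart from a change per cell. Their part in the values of the respiratory and ribosomal genes was not tested.

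The 48 h primary values also depend on the dye-reversed arrays. With the 2 reversed primary arrays brought in as deposited, 27 of the 70 genes were higher and called, against 5.38% of all features, and the medians of the respiratory and ribosomal genes became 0.47 and 0.37. With their sign exchanged and a dye term, the medians became -0.20 and -0.16, and 3 genes, Atp5k, Ndufv3 and Uqcrfs1, were lower and called, against 4.56% of all features. Atp5j, Cox7c and Mrpl40 then stood at -0.04, -0.09 and -0.13.

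**Figure D3:**
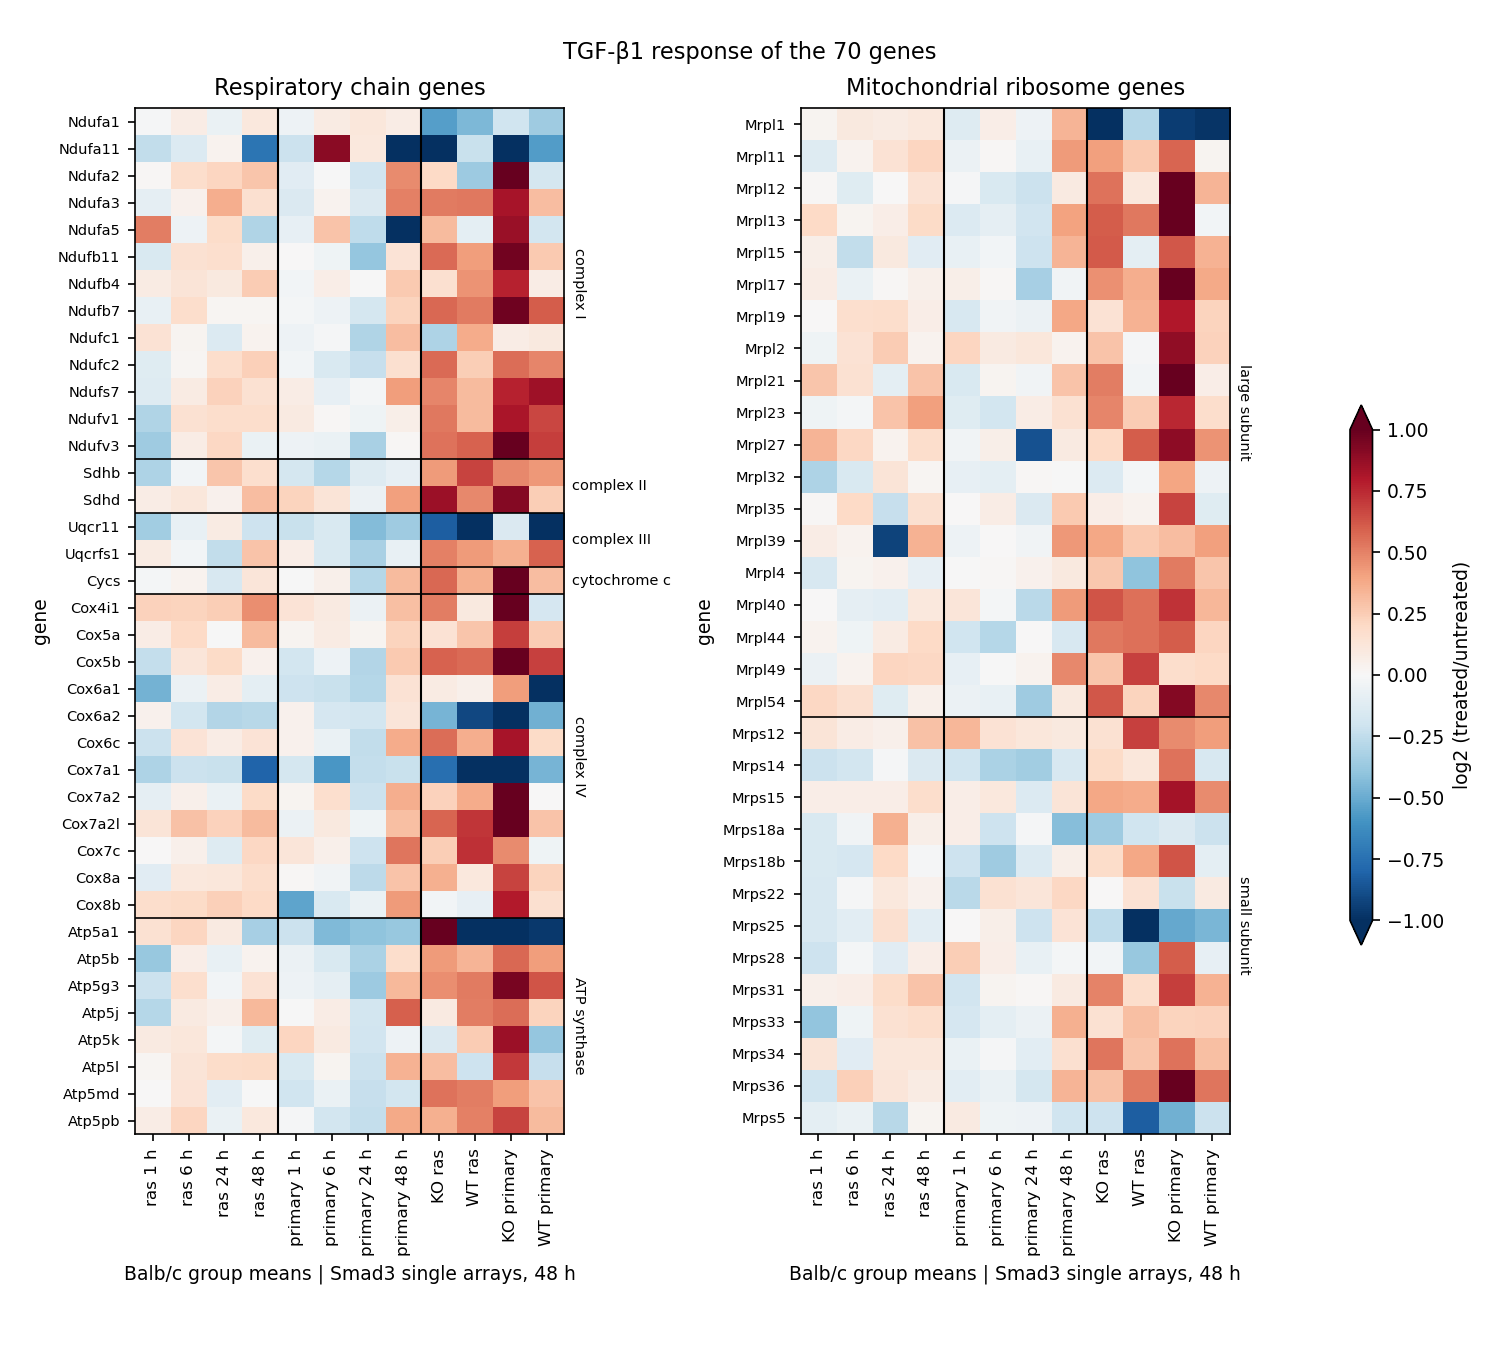
Mean log2 response of each of the 70 genes in ras and primary Balb/c keratinocytes over time, and the value on each single Smad3 array, ordered by complex and ribosomal subunit. Colours are cut at 1 log2 unit either way. The primary 24 h column is mostly blue and the primary 48 h column mostly red, and the knockout primary array is the darkest red.

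**Figure D4:**
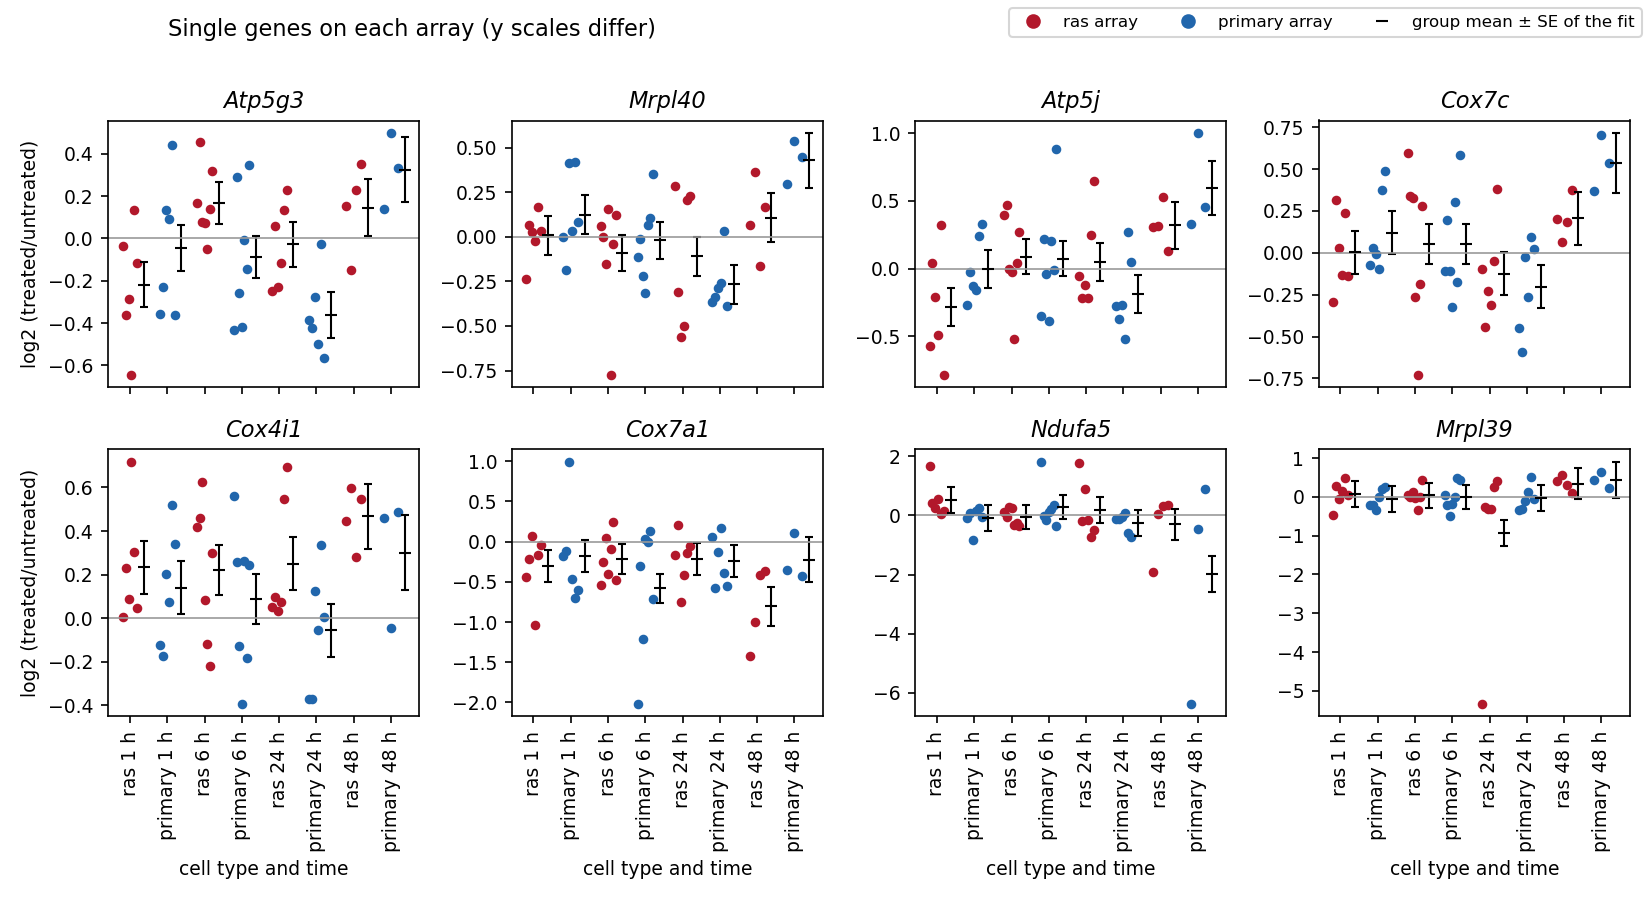
Log2 ratio of treated over untreated RNA on each array for 8 of the 70 genes, with the group mean and its SE, by time with ras left of primary. Atp5g3 lies below 0 on all 6 primary arrays at 24 h, Cox7a1 below 0 on all 4 ras arrays at 48 h, and Ndufa5 and Mrpl39 each have 1 value below -5.

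The remaining core subunits gave small values. Sdhb, the iron-sulphur subunit of complex II, averaged 0.27 ± 0.16 in ras and -0.13 ± 0.16 in primary cells at 24 h. Cox5a of complex IV averaged -0.01 ± 0.16 in ras and 0.02 ± 0.16 in primary cells at 24 h. Cycs averaged 0.12 ± 0.15 in ras and 0.32 ± 0.17 in primary cells at 48 h. The primary values of Cycs at 48 h were 0.17, 0.36 and 0.42, all above 0, whereas those of Atp5a1 were -0.13, -1.19 and 0.18, spread on both sides of 0 around a mean of -0.38 ± 0.26. Mrpl12, which forms part of the stalk of the large subunit where translation factors dock, averaged 0.01 ± 0.10 in ras and -0.22 ± 0.10 in primary cells at 24 h. Mrps12, a protein near the decoding centre of the small subunit, averaged 0.05 ± 0.12 in ras and 0.11 ± 0.12 in primary cells at 24 h. None of these values is called.

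The second question was whether the oncogene changed the response. In the test of ras minus primary 0 of the 70 genes were called at 1, 6, 24 and 48 h (limma), where 0.00%, 0.00%, 0.0449% and 0.202% of all features were called. At an unadjusted p under 0.05, 3, 1, 10 and 2 of the 70 genes passed at the 4 times, against 4.17%, 4.59% and 6.67% of all features at 1, 6 and 48 h. At 24 h all 10 had a higher response in ras cells, against 4.67% of all features, and 9 of them were respiratory genes. The largest of these differences were those of Ndufb11 (0.55 ± 0.20 SE) and Ndufv3 (0.53 ± 0.19 SE), each with an adjusted p of 0.449. The median difference was 0.25 over the respiratory genes, with 34 of 38 above 0, and 0.20 over the ribosomal genes, with 24 of 32, while 53.7% of all features lay above 0.

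The difference at 24 h was also described within database ID blocks, each with 1 or 2 arrays of a cell type, and was not tested there. In the 4 blocks that held both cell types, the respiratory medians of ras against primary arrays were -0.07 and -0.24, -0.11 and -0.31, 0.27 and 0.09, and 0.27 and -0.13. Ras arrays were higher in all 4. The ribosomal medians were 0.02 and -0.16, -0.04 and -0.05, 0.18 and 0.20, and 0.18 and -0.21 in the same blocks, so that ras arrays were higher in 3 of 4.

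Change with time was tested as 24 h minus 1 h. In ras cells 0 of 70 genes were called against 1.08% of all features, and in primary cells 0 of 70 against 0.168%. At an unadjusted p under 0.05, 10 genes had a higher response at 24 h than at 1 h in ras cells, against 7.65% of all features, with Mrps33 at 0.55 ± 0.17, Ndufv1 at 0.47 ± 0.15, Ndufv3 at 0.56 ± 0.19 and Sdhb at 0.58 ± 0.23 (SE). Their adjusted p-values by limma were 0.0900 and above. The median difference was 0.10 over the respiratory genes in ras cells and -0.19 in primary cells.

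The third question was whether Smad3 was needed for the response at 48 h. The ratio of Smad3 itself was -0.72 in knockout and -0.34 in wild type ras cells, and -2.94 in knockout and -0.87 in wild type primary cells. These values of Smad3 are as deposited, whereas those of the other genes were centred on the array median. A ratio of treated over untreated cells of one genotype does not check the genotype. With 1 array for each genotype and cell type, the test averaged the knockout minus wild type difference over both cell types and took its spread from the Balb/c groups, so it assumes that the Smad3 arrays vary like those. Uqcr11 was the 1 gene of the 70 that was called, against 1.74% of all features, and it was higher in knockout cells, as were 0.438% of all features.

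Uqcr11 had log2 ratios of -0.82 in knockout and -5.05 in wild type ras cells, and of -0.15 in knockout and -1.65 in wild type primary cells. The dye-reversed knockout arrays read -3.93 in ras and -0.44 in primary cells as deposited. The wild type ras array stood lowest, and the reversed knockout ras array lay nearer to it than to the other knockout ras array. The mean difference was 2.86 ± 0.41 (SE) with an adjusted p of 7.47e-06 by limma, made up of 4.22 in ras and 1.50 in primary cells.

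On the arrays tested, the other genes of the 70 mostly had a higher ratio in knockout cells. The medians of the difference were larger in primary cells, which was not tested. The median difference was 0.21 over the respiratory genes, with 31 of 38 above 0, and 0.25 over the ribosomal genes, with 26 of 32, while 52.2% of all features lay above 0. Within ras cells the medians of the knockout minus wild type difference were 0.06 and 0.08 for the respiratory and the ribosomal genes, and within primary cells 0.44 and 0.42. Part of the primary difference comes from centring each array on its median over probes. That median was -0.146 on the knockout and -0.032 on the wild type primary array, and -0.041 and -0.0285 on the ras arrays. Of the genes, 18 of 38 and 17 of 32 were higher in knockout cells of both kinds. The knockout primary array also had the widest spread of these 4 arrays (SD 0.965, against 0.667 to 0.703 on the other 3). The part of that spread in the difference was not tested. The respiratory and ribosomal medians were 0.736 and 0.6145 on that array and 0.225 and 0.2215 on the wild type primary array. On the dye-reversed knockout primary array as deposited they were 0.3585 and 0.2695, nearer to wild type. The size of the primary difference thus depends on the knockout array used.

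**Figure D5:**
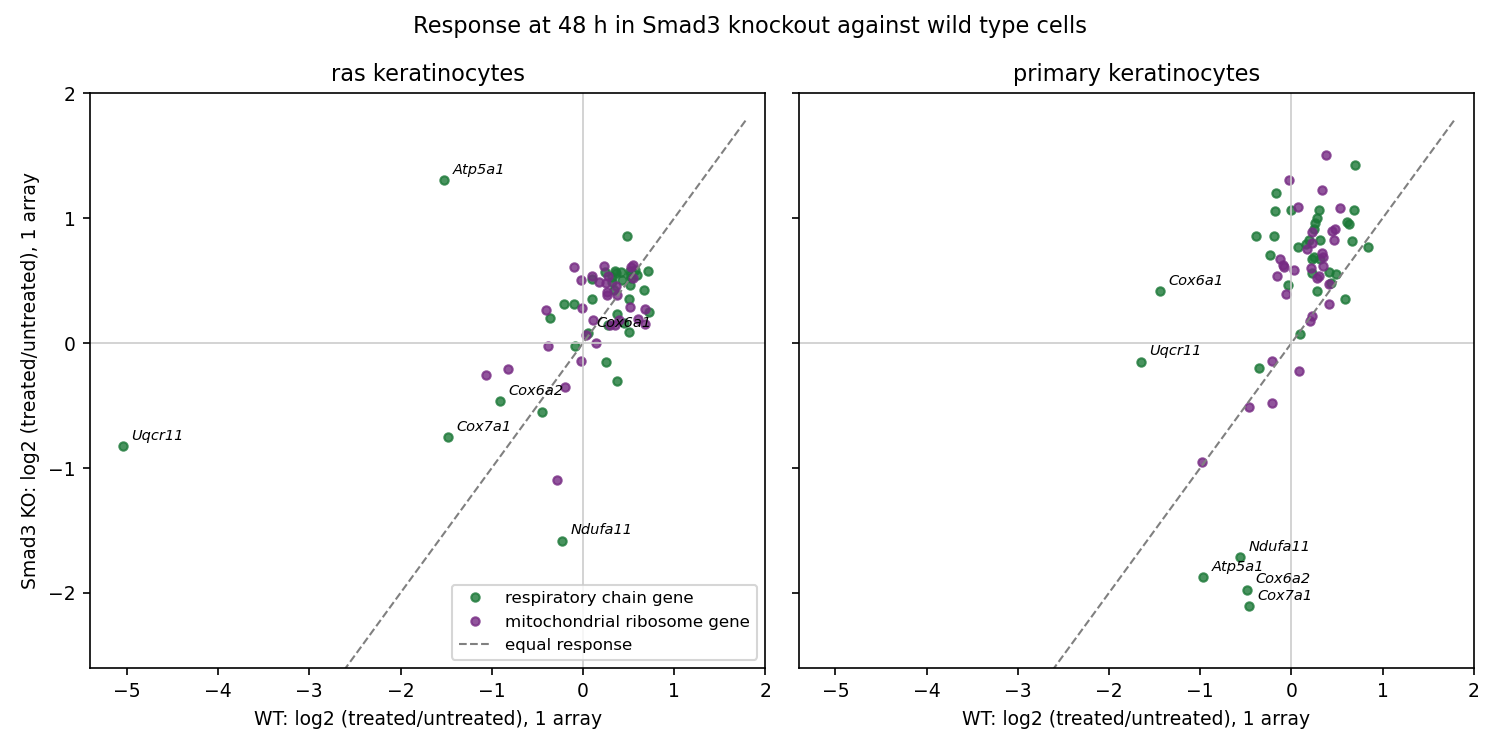
Log2 ratio in Smad3 knockout cells (vertical) against Smad3 wild type cells (horizontal) at 48 h, 1 point per gene, for ras (left) and primary keratinocytes (right), with the line of equal response dashed. In primary cells 31 of 38 respiratory and 26 of 32 ribosomal genes lie above the line, and Uqcr11 lies far to the left in ras cells.

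Single values behind these medians differed between the cell types. Cox4i1 had a mean difference of 0.89 ± 0.30 (SE, adjusted p 0.185 by limma) and Ndufa2 of complex I one of 0.90 ± 0.31 (adjusted p 0.196). Cox6a1 stood at 0.95 ± 0.41 and Mrpl12 at 0.66 ± 0.26 (adjusted p 0.550 and 0.373). Atp5a1 had ratios of 1.30 in knockout and -1.52 in wild type ras cells, but of -1.87 in knockout and -0.97 in wild type primary cells, so its mean difference of 0.96 ± 0.44 joins opposite signs.

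Genes of other steps of mitochondrial biology, which were measured on the same arrays, held some calls. Of 21 assembly factors, proteins that build the complexes without being part of them, 1 rose and 3 fell in ras cells at 24 h, against 3.84% and 6.67% of all features. Another 2 calls, both higher, came in primary cells at 48 h, against 5.11% of all features. Of the 3 that fell, Coa6 had a lowest array of -7.84 and a median array of -0.32, Cox20 -3.44 and -0.20, and Atpaf2 -0.75 and -0.46. Tmem70, needed in human cells to assemble ATP synthase, averaged 0.40 ± 0.11 (SE, n = 6, adjusted p 0.0184 by limma) in ras cells at 24 h and 0.88 ± 0.15 (SE, n = 3, adjusted p 1.24e-04) in primary cells at 48 h. Cox17, a copper chaperone for complex IV, averaged 0.73 ± 0.18 (SE, n = 3, adjusted p 0.00701) in primary cells at 48 h.

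Of 15 genes of mitochondrial gene expression, Mtg2 was called higher in ras cells at 24 h, against 3.84% of all features. Mtg2 is a GTPase that acts in assembly of the mitochondrial ribosome in human cells. Its log2 ratios there ran between 0.87 and 1.78 with a median of 1.61, and all 6 arrays lay above 0. The mean was 1.45 ± 0.15 (SE, n = 6, adjusted p 9.99e-08 by limma), and its response was 1.28 ± 0.22 higher in ras than in primary cells at 24 h (adjusted p 0.00583). The 32 ribosomal genes had a median of 0.08 on the same arrays.

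Glycolysis was the list with most calls in primary cells at 24 h. In ras cells at 24 h 1 of its 9 measured genes fell, Pgk1 at -0.55 ± 0.14 (SE, n = 6, adjusted p 0.0119 by limma), against 6.67% of all features lower and called, and the list's median was -0.28. On the primary arrays at 24 h 4 of the 9 genes fell, against 1.01% of all features lower and called, and the median was -0.55. Ldha, which makes lactate, averaged -0.74 ± 0.16, Pgk1 -0.73 ± 0.14, Tpi1 -0.72 ± 0.14 and Pkm -0.55 ± 0.13 (SE, n = 6 each, adjusted p between 0.00188 and 0.0141). At 48 h Pfkl, a phosphofructokinase, fell at -0.75 in ras and -0.88 in primary cells, against 1.61% and 3.49% of all features lower and called.

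Among 14 genes of the citrate cycle and pyruvate dehydrogenase, Idh3g, a subunit of isocitrate dehydrogenase, rose by 0.48 in ras cells at 24 h. Pdhb, a subunit of pyruvate dehydrogenase, was called there at -2.24, with a lowest array of -9.50 and a median array of -0.65. Pdk4, a kinase that restrains pyruvate dehydrogenase, rose by 0.58 in primary cells at 48 h, where Ogdh, a subunit of oxoglutarate dehydrogenase, fell at -0.67. Esrra, a nuclear receptor that activates respiratory genes, averaged 0.37 ± 0.11 (SE, n = 6, adjusted p 0.0297) in ras cells at 24 h and -0.50 ± 0.16 (SE, n = 3, adjusted p 0.0422) in primary cells at 48 h. Myc, a regulator of growth, fell at -1.18 in ras cells at 6 h, as did Tomm20l, a homologue of an import receptor, at -0.68. Hif1a, a regulator of the response to low oxygen, was called at -2.25 in ras cells at 48 h, with a lowest array of -7.02 and a median array of -0.81. Mars2, the mitochondrial methionyl-tRNA synthetase, was called at -1.56 in primary cells at 48 h, with a lowest array of -4.12 and a median array of -0.32. Esrra, Myc and Hif1a were among 10 regulators measured, Tomm20l among 8 import genes and Mars2 among 15 genes of mitochondrial gene expression. Of all features, 3.84% were called higher and 6.67% lower in ras cells at 24 h, and 5.11% and 3.49% in primary cells at 48 h. In ras cells 0.371% were called lower at 6 h and 1.61% at 48 h.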

How the data were processed

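RNA of treated and untreated mouse keratinocytes was compared on 2-colour arrays, 56 in all. The deposited values are log2 ratios, 1 per probe and array, which the authors made before deposit; the log base, background correction and within-array normalization are not stated in the labels or file headers used here, and the values were taken as log2. Of 9596 probes, 7486 had 1 gene symbol in the platform annotation, 483 several and 1627 none, and 7395 matched RefSeq genes; only the first kind was named, which leaves out 8 probes whose several symbols match the rule. Each array was centred on its median over probes (these ranged from -0.146 to 0.02), and probes of 1 gene were averaged, giving 8905 features; 4 of the 70 genes have 2 probes. Groups were taken from the labels. A limma model (version 3.58.1, in R 4.3.3, with moderated variances) was fitted once over 12 groups and 49 arrays, with two-sided tests, Benjamini-Hochberg adjustment over all features and a threshold of 0.05. The script was tested on simulated data. The number of arrays limits the precision. Blocks group arrays by the leading digits of their database experiment ID and may not be days or batches of work.

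The 70 genes and all lists were chosen with earlier results of these data known, so no list was tested as a whole. Genes given with values for each array are the 8 with the lowest adjusted p over the 8 responses, every called gene and the core subunits highest and lowest in primary cells at 48 h; other core subunits are given whatever their values, and Ndufb11, Ndufv3, Ndufc1, Ndufa2, Ndufa3, Cox5b, Cox8a, Cox7a2, Cox6a2, Cox8b, Mrpl23 and Mrps33 were chosen after their values were seen. Alternatives were reversed arrays with either sign, no centring, arrays scaled or weighted, ID blocks, a replicate block, probes kept apart and each array left out.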

Additional observations from a re-analysis of the deposited data

Results flagged for a closer look

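In groups of 4 to 10 arrays, the values of the named genes were searched for an array whose gap to the nearest other array took up most of the group's range (Dixon's 95% criterion). Of 147 groups of values examined, 14 held such an array, and chance alone marks about 1 in 20. Ndufa5 was marked in 4 groups: primary array 3 at 1 h read -0.85 (nearest -0.08), primary array 1 at 6 h 1.82 (nearest 0.34), ras array 1 at 1 h 1.68 (nearest 0.54) and ras array 1 at 48 h -1.92 (nearest 0.05). Mrpl39 read -5.34 on ras array 1 at 24 h, where the nearest array read -0.31. Uqcr11 read -1.06 on ras array 2 at 48 h (nearest 0.03), and Cox6a1 read -1.05 on the same array (nearest 0.14).

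On primary array 5 at 24 h, 3 genes stood above the other arrays: Sdhb at 0.81 (nearest -0.16), Atp5b at 0.24 (nearest -0.30) and Mrpl40 at 0.0315 (nearest -0.26). Atp5a1 read -1.30 on primary array 6 at 24 h (nearest -0.40). On primary array 3 at 1 h, Cox7a1 read 1.00 (nearest -0.12) and Mrps12 0.54 (nearest 0.34). Mrpl40 read -0.78 on ras array 6 at 6 h (nearest -0.15). Between groups, Uqcr11 differed by 2.86 log2 units between Smad3 knockout and wild type cells (limma, adjusted p 7.47e-06), with the values of each array given above. No cause of these values was tested.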

How the results depend on the processing

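Shares in parentheses are those of all features called under the same setting. Without centring, the counts of called genes in the responses, in ras minus primary, in 24 h minus 1 h and for Smad3 were as reported, and every group median kept its sign. Reversed arrays as deposited gave 1 called gene in ras cells (1.40%) and 27 in primary cells (8.25%) at 48 h (primary medians 0.466 and 0.370 for respiratory and ribosomal genes). Reversed arrays with the sign exchanged and a dye term gave 7 called genes in ras cells at 1 h (0.988%) and 2 at 6 h (1.19%), and 18 in primary cells at 24 h (3.66%) and 3 at 48 h (8.02%); the respiratory and ribosomal medians were then -0.292 and -0.239, -0.146 and -0.138, -0.135 and -0.0870, and -0.112 and -0.0872 in ras cells at 1, 6, 24 and 48 h, and -0.305 and -0.262, -0.314 and -0.241, -0.491 and -0.298, and -0.202 and -0.160 in primary cells. Atp5j, Cox7c and Mrpl40 turned to -0.041, -0.0894 and -0.126 in primary cells at 48 h. Scaled arrays gave 7 called genes in primary cells at 24 h (4.40%) and 0 at 48 h (4.75%). Array weights gave 3, 5, 1 and 1 in ras cells at 1, 6, 24 and 48 h (1.02%, 13.5%, 6.31% and 3.68%), 20 in primary cells at 24 h (9.38%), 1 for ras minus primary at 24 h (1.52%), 4 and 1 for 24 h minus 1 h in ras and primary cells (5.99% and 0.865%), and 2 for Smad3 (4.02%). ID blocks as a random term (correlation 0.140) gave 1 for ras 24 h minus 1 h (2.48%). Probes kept apart gave 2 in ras cells at 24 h (10.4%) and 1 and 2 in primary cells at 24 and 48 h (1.37% and 8.68%). At 24 h the ras calls were 1 probe each of Mrpl39 and Mrps5, and the primary call 1 probe of Mrps25. The 2 probes of Mrps5 averaged -0.445 and -0.102 there, and those of Mrps25 -0.418 and 0.009 (adjusted p of the called probes 0.0145 and 0.0309 by limma).

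Leaving out each array in turn gave 0 to 1 called genes in ras cells at 24 and 48 h, in primary cells at 24 and 48 h, for ras minus primary at 48 h and for ras 24 h minus 1 h, 0 to 2 for primary 48 h minus 24 h, and 0 in the other comparisons run this way. Smad3, with 1 array a group, was not among them. It gave ribosomal medians of 0.125 to 0.214 in primary cells at 48 h, and turned Ndufa5 between -3.43 and 0.207 there. Same-numbered ras and primary arrays did not deviate together (19 pairs, correlations -0.232 to 0.390, 5 over 0.1), so the numbers are not taken as pairs. The replicate block gave 2 called genes (8.59%) and a ribosomal median of 0.0770 in primary cells at 48 h, gave 0 in place of 2 for primary 48 h minus 24 h, and moved no other count. No cause of these changes was tested.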

Other observations

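The contrast of 48 h minus 24 h was chosen after the values were seen. In ras cells 0 of the 70 genes were called, against 0.0112% of all features, and the medians of the respiratory and ribosomal genes were 0.06 and 0.06. In primary cells its median was 0.42 over the respiratory genes, with 35 of 38 above 0, and 0.30 over the ribosomal genes, with 26 of 32. Atp5g3 (0.69) and Mrpl40 (0.70) were called, each with an adjusted p of 0.0496 by limma, against 1.66% of all features called and 1.37% called higher at 48 h. The 2 calls in primary cells lie at the threshold: without primary array 2 at 48 h their adjusted p-values were 0.258 and 0.213, and 0 genes were called with no centring, with ID blocks as a random term, with the replicate block and with the reversed arrays' sign exchanged. With the reversed arrays as deposited 20 genes were called, all higher at 48 h, against 1.86% of all features.

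Arrays at 48 h and at 24 h lie partly in different ID blocks. Within the 2 blocks that hold primary arrays of both times, the respiratory median was 0.23 at 48 h and 0.09 at 24 h in one, and 0.16 at 48 h and -0.13 at 24 h in the other. The medians of the respiratory and the ribosomal genes had the same sign on 40 of the 45 Balb/c arrays tested, which share their RNA and dye reaction within each array.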
